A study of Mus musculus with 4 samples.

Results

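Transforming growth factor beta (TGF-beta) is a secreted signal that is stored in the matrix as a latent complex and acts through a pair of membrane receptor kinases. The activated receptors phosphorylate Smad proteins, which carry the signal into the nucleus, and inhibitory genes switched on by the pathway damp it again. In the liver, macrophages are a well known source of the ligand, and the pathway is studied there for its part in fibrosis and tumour growth. The genes described here are 10 of this pathway, chosen by symbol: the ligands Tgfb1, Tgfb2 and Tgfb3, the receptors Tgfbr1, Tgfbr2 and Tgfbr3, the latency protein Ltbp1, the signal carrier Smad3 and the inhibitors Smad7 and Skil. These genes were chosen with earlier results of these data known. They were read by 25 probe sets annotated to these symbols alone, of 45037 probe sets on the array, and they are 10 of 18193 named genes.

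The study put Kupffer cells, macrophages that reside in liver, together with SL4, a mouse colon carcinoma cell line, and asked with a Dectin-2 knockout whether this receptor matters for what follows. The 4 groups were Clec4n-/- (Dectin-2 KO) Kupffer cells in co-culture with SL4 cells, KO Kupffer cells kept apart from SL4 cells, wild-type (WT) Kupffer cells in co-culture with SL4 cells, and WT Kupffer cells kept apart from them. Kupffer cells were sorted as CD45+ CD11b+ F4/80+ cells from 12-week-old female C57BL/6 mice, the strain that the labels also give for the SL4 cells. Every group had 100000 cells of each kind and was lysed after 8 hours, and the RNA of the separate cultures was mixed, so each of the 4 arrays holds RNA of both cell types. How many mice gave cells to an array is not given in the sources used here. There was 1 array per group, with no replicates, so no difference was tested and no value below has an error. In such mixed RNA, fewer cells of a type and less RNA per cell cannot be told apart, and a change cannot be assigned to the Kupffer cells or to the tumour cells.

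Values are MAS5 signals, background-corrected intensities on a linear scale. A probe set is called measured where its signal exceeded 76.1, the median signal of the whole table, which served as a floor. Median signals ran from 72.5 to 78.4 per array. Clec4n itself lay under the floor in every array, its brighter probe set at 8.19 and 8.29 in the KO co-culture and KO separate arrays, against 17.6 and 14.2 in the WT co-culture and WT separate arrays, so it gives only a weak check of the genotype labels. Of 20 macrophage and Kupffer cell markers, 11 were under the floor in all arrays. Among them were Clec4f and the genes of the sort antigens, Ptprc (CD45), Itgam (CD11b) and Adgre1 (F4/80). Likewise 9 of 10 epithelial markers were under it, while 7 of 10 mesenchymal markers were above it in all 4 arrays.

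Tgfb1 was the member that stood out in the culture comparison, and its promoter is shown for that reason, beside that of Smad3, whose 3 probe sets all read higher in both co-cultures. Each stretch is the 250 bases before the RefSeq start, 5′ to 3′ on the gene's strand, build GRCm38.p6. Tgfb1 lies at chr7:25686752-25687001 on the plus strand and Smad3 at chr9:63757995-63758244 on the minus strand. Capitals mark the Sp1-type motif GGGCGG in either orientation.
Tgfb1: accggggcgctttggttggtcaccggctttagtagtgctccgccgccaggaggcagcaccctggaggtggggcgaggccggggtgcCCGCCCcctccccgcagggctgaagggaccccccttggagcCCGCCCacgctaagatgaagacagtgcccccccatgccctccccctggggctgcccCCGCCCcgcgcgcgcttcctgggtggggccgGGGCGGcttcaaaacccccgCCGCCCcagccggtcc
Smad3: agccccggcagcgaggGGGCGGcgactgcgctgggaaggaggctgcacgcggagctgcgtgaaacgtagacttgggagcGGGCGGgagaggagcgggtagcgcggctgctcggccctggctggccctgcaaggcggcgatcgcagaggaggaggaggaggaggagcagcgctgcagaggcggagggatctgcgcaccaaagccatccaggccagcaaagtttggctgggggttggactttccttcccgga

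The Tgfb1 window was 75.2% G and C and held 5 GGGCGG matches, 4 of them on the opposite strand, and the Smad3 window was 69.2% G and C and held 2. At least 1 such match was found in 32.7% of 32851 windows of this length in the RefSeq table, and at least 5 in 1.93%. The motif TGANTCA, of AP-1 type, and CAGACA, of Smad box type, were searched on both strands as well and had 0 matches in either window. Across all windows, 6.75% held TGANTCA and 17.1% held CAGACA. Windows were read for 6 of the 10 members, with 8 starts in all. Smad7, on chromosome 18, was left out of this search. CAGACA was found in the Tgfb2 window and at 1 start each of Tgfbr1 and Ltbp1, GGGCGG at the other Tgfbr1 start, and no match of any of the 3 motifs in the Tgfbr2 window. These matches are descriptions of the letters and say nothing of binding.

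Among the ligands, Tgfb1 signal was higher in co-culture in both genotypes while Tgfb2 and Tgfb3 were not. Tgfb1 encodes the ligand best known from leukocytes and platelets. Its measured probe set read 437 in KO co-culture against 158 in KO separate culture, 2.76-fold higher. It read 513 in WT co-culture against 209 in WT separate culture, 2.45-fold higher. Both co-culture arrays were above both separate arrays. The ratio was rank 23 from the top of 10444 genes in KO and rank 43 of 10417 in WT.

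Tgfb1 was the 1 of 9 measured members at least 2-fold higher, in each genotype, and 0 of 9 were at least 2-fold lower. Over all measured genes, 0.67% were at least 2-fold higher in KO co-culture and 0.701% in WT co-culture, 0.574% and 0.538% were at least 2-fold lower, and 0.421% of 10224 genes were at least 2-fold higher in both. The second Tgfb1 probe set was under the floor in every array, at 45.0 in KO co-culture against 33.2 in KO separate culture, and at 56.6 in WT co-culture against 22.6 in WT separate culture. It was brighter in co-culture in each genotype, but at that level no fold is given, so the Tgfb1 ratio rests on 1 probe set.

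Macrophage markers were read both as a sum and gene by gene. The summed signal of the 20 markers was 2416 in KO co-culture against 2415 in KO separate culture, and 2480 in WT co-culture against 2055 in WT separate culture, a ratio of 1.21 in WT. Among the 9 measured ones the median log2 ratio was 0.29 in KO and 0.26 in WT, and 7 of 9 were above 0 in each. The 2 below 0 in KO were Cd53 and Laptm5, the brightest of the list, which weigh most in the sum. Cd53 had log2 ratios of -0.23 in KO and 0.26 in WT, and Laptm5 -0.29 in KO and 0.14 in WT. C1qb, a complement component, was the 1 of 9 at least 2-fold higher in WT co-culture, at 264 against 100.3 in WT separate culture, and 0 of 9 were so in KO. Csf1r, the receptor for macrophage growth factor, was 1 of the 2 below 0 in WT. It read 125 in KO co-culture against 123 in KO separate culture, and 120 in WT co-culture against 138 in WT separate culture. Platelet markers, of another cell rich in TGF-beta 1, were under the floor in all arrays for 5 of 5 genes. The part of macrophage RNA in the Tgfb1 ratios was not tested.

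Tgfb2, a ligand known from epithelial and mesenchymal cells, was close to the floor. Its measured probe set read 97.3 in KO co-culture against 128 in KO separate culture, and 131 in WT co-culture against 145 in WT separate culture. Both log2 ratios were below 0, at -0.40 in KO and -0.16 in WT, and the other 3 Tgfb2 probe sets lay under the floor in every array. Tgfb3, a ligand of mesenchymal cells, was nearly level, at 591 in KO co-culture against 651 in KO separate culture, and at 553 in WT co-culture against 574 in WT separate culture. Its log2 ratios were -0.14 in KO and -0.05 in WT.

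**Figure D1:**
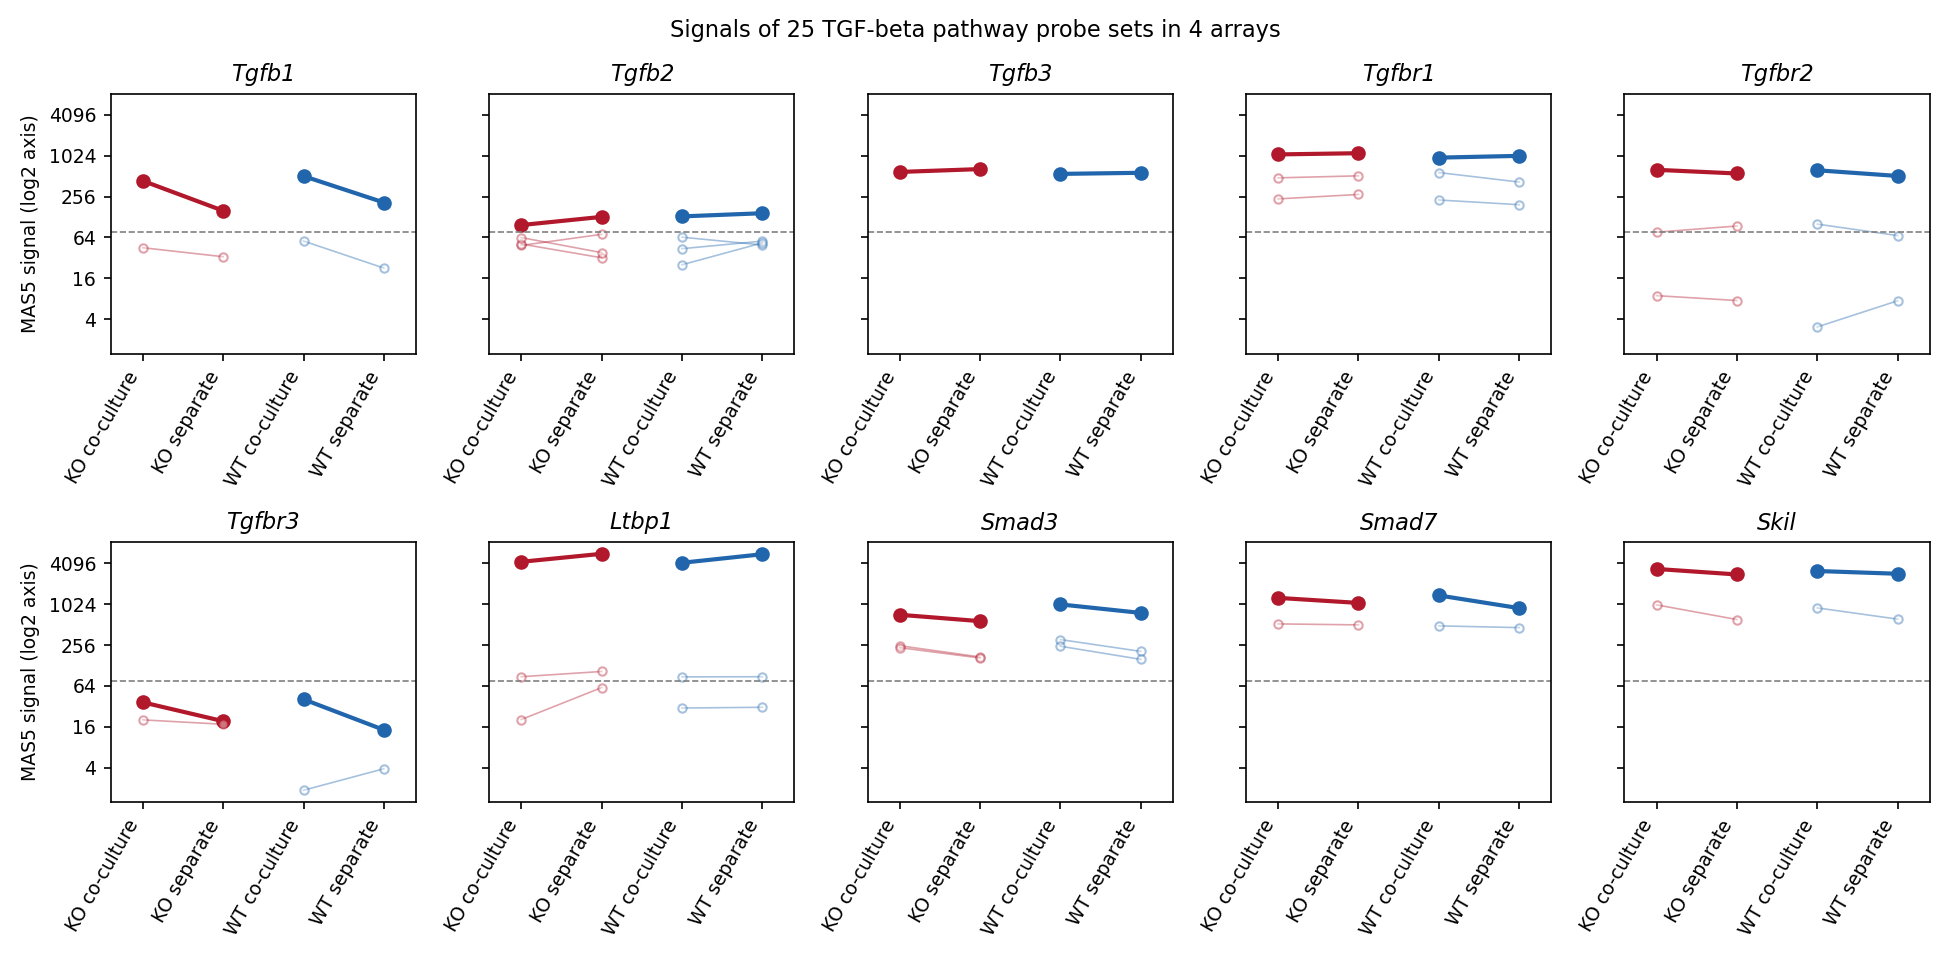
MAS5 signal (log2 axis) of the 25 probe sets of the 10 members in the 4 arrays, 1 panel per gene, with KO arrays in red and WT arrays in blue. Filled points are the brightest probe set of a gene, open points the others, and the dashed line the floor of 76.1, and the Tgfb1 lines fall steeply toward separate culture in both genotypes while those of Tgfb3 and the brightest Tgfbr1 probe set are nearly flat.

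Ltbp1 encodes latent TGF-beta binding protein 1, which ties the latent ligand to the matrix. It was lower in co-culture in both genotypes by nearly the same amount. Its brightest probe set read 4326 in KO co-culture against 5671 in KO separate culture, and 4185 in WT co-culture against 5592 in WT separate culture. The log2 ratios were -0.39 in KO and -0.42 in WT, and 9.99% of genes in KO and 7.40% in WT had a ratio as low. A dim second probe set read 87.4 in KO co-culture against 104 in KO separate culture, but 87.0 in WT co-culture against 87.4 in WT separate culture. The third was under the floor.

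Both signalling receptor genes were measured, and neither moved far. Tgfbr1, the type I receptor kinase, had 3 measured probe sets. The brightest read 1071 in KO co-culture against 1116 in KO separate culture, and 960 in WT co-culture against 1019 in WT separate culture. The other 2 were lower in KO co-culture, with log2 ratios of -0.10 and -0.22, and higher in WT co-culture, at 0.47 and 0.23. The Tgfbr1 probe sets thus disagreed in direction in WT.

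Tgfbr2, the type II receptor that binds the ligand first, was slightly higher in co-culture by its brightest probe set. That probe set read 635 in KO co-culture against 561 in KO separate culture, and 625 in WT co-culture against 515 in WT separate culture, log2 ratios of 0.18 in KO and 0.28 in WT. A second Tgfbr2 probe set at the floor had log2 ratios of -0.30 in KO and 0.40 in WT. Tgfbr3, the co-receptor betaglycan, was under the floor in all 4 arrays by both probe sets, so it has no fold. Its brighter probe set read 36.7 in KO co-culture against 19.3 in KO separate culture, and 40.6 in WT co-culture against 14.4 in WT separate culture.

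Smad3, which carries the signal of the activated receptors to DNA, was modestly higher in co-culture by every probe set. The brightest read 716 in KO co-culture against 577 in KO separate culture, and 1018 in WT co-culture against 763 in WT separate culture, 1.24-fold higher in KO and 1.33-fold in WT. The second read 250.4 in KO co-culture against 171 in KO separate culture, and 308 in WT co-culture against 207 in WT separate culture, 1.46-fold higher in KO and 1.49-fold in WT. The third was 1.42-fold higher in KO and 1.56-fold higher in WT, but it is of a type that can match several transcripts, per its suffix. Of 2203 genes with at least 3 probe sets measured in all arrays, 7.26% had all of them higher in both genotypes. Tgfbr1, the other member with at least 3, did not. Probe sets of a gene share the arrays and are not independent.

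Smad7, the inhibitory Smad that the pathway induces against itself, was higher by different amounts in its 2 probe sets. One read 1270 in KO co-culture against 1071 in KO separate culture, and 1381 in WT co-culture against 897 in WT separate culture, 1.19-fold higher in KO and 1.54-fold in WT. The other was nearly level, at 525 in KO co-culture against 508 in KO separate culture, and at 491 in WT co-culture against 463 in WT separate culture. The first is of a type that can bind related transcripts, per its suffix, so the size of the Smad7 change is uncertain.

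Skil encodes SnoN, a nuclear repressor of Smads and itself a target of the pathway. Its brighter probe set read 3393 in KO co-culture against 2814 in KO separate culture, and 3164 in WT co-culture against 2882 in WT separate culture, 1.21-fold higher in KO and 1.10-fold in WT. Its other probe set moved further, at 1003 in KO co-culture against 609 in KO separate culture, and at 904 in WT co-culture against 618 in WT separate culture, 1.65-fold higher in KO and 1.46-fold in WT. Both Skil probe sets were higher in both co-cultures, as were both of Smad7 and all 3 of Smad3. Tgfbr1 and Ltbp1, the other members with at least 2 probe sets measured in all arrays, did not have that pattern. Among 4989 genes with at least 2 such probe sets, 10.9% had it.

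**Figure D2:**
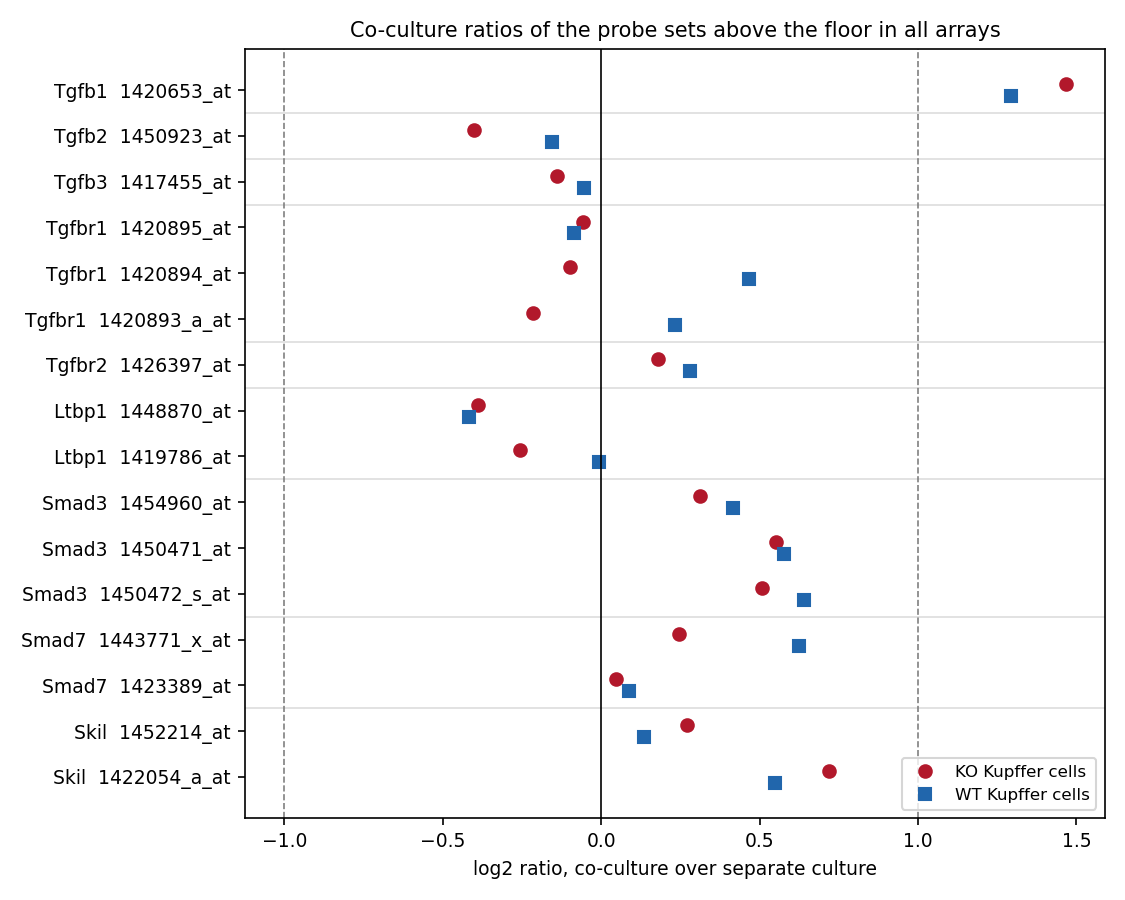
Log2 ratio of co-culture over separate culture for the 16 member probe sets above the floor in all 4 arrays, red circles for KO and blue squares for WT, with dashed lines at 2-fold. Tgfb1 lies past the line in both genotypes, at 1.47 in KO and 1.29 in WT, and the Smad3, Smad7 and Skil probe sets lie between 0 and 1.

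Set side by side, the 9 measured members had the same direction in both genotypes by their brightest probe sets, 5 higher and 4 lower in co-culture. Dimmer probe sets of Tgfbr1 and Tgfbr2 had opposite signs in the genotypes, as given above. The 2 comparisons share no array, and 63.5% of 9727 genes above the floor in all arrays had the same direction in both. Apart from Tgfb1, no measured member exceeded 1.32-fold in KO or 1.54-fold in WT by its brightest probe set. The median log2 ratio of the 9 was 0.18 in KO and 0.13 in WT, against -0.02 over all measured genes in each genotype. The nearest thing to a repeat of a ratio is the other genotype, and the difference between the genotypes' log2 ratios had an SD of 0.22 over 10224 genes, after division by the square root of 2. That value pools bright and dim genes and includes any difference between the genotypes. It is therefore not the error of a member's ratio, and no member was tested against it.

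**Figure D3:**
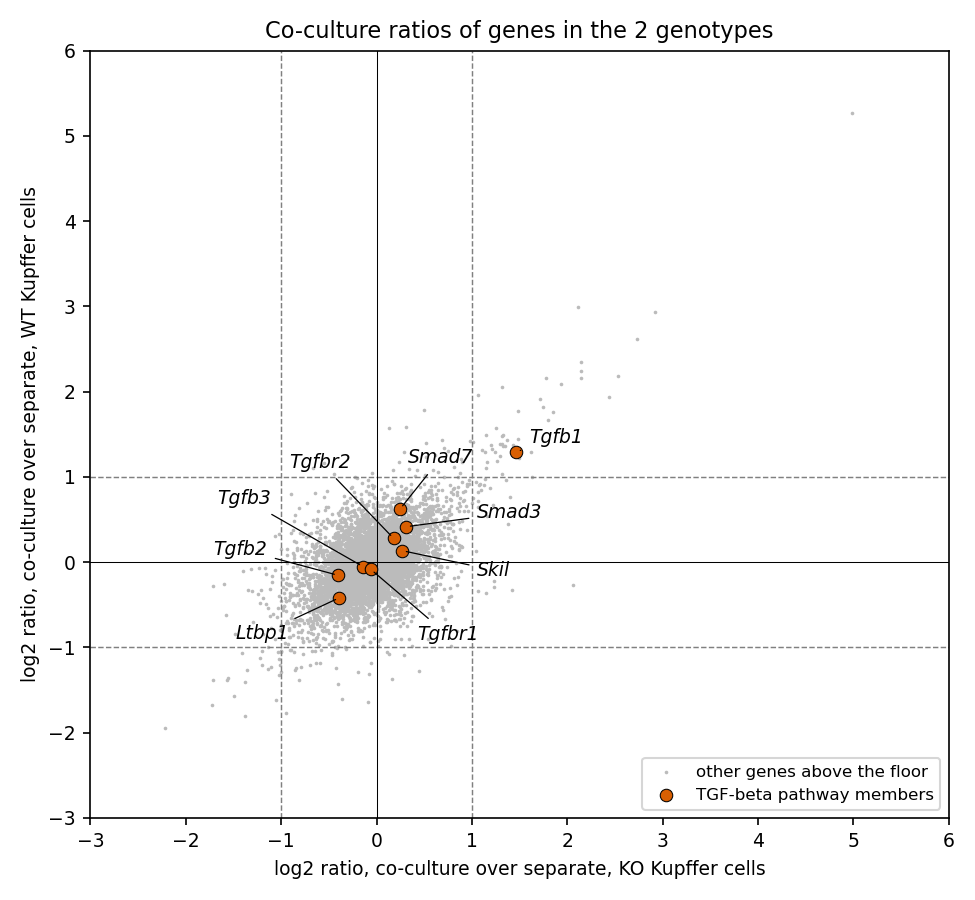
Log2 ratio of co-culture over separate culture in KO (horizontal axis) and WT (vertical axis) for genes above the floor, members in orange, with dashed lines at 2-fold. Tgfb1 sits at 1.47 and 1.29 outside the main cloud, and the other 8 measured members lie within it.

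The Dectin-2 comparison within each culture condition gave no 2-fold difference for any of the 9 measured members, while 0.24% of genes were called either way in co-culture and 0.203% in separate culture. The largest member difference in co-culture was that of Smad3, whose brightest probe set read 716 in KO co-culture against 1018 in WT co-culture and 577 in KO separate culture against 763 in WT separate culture. KO was lower in both, with log2 ratios of -0.51 in co-culture and -0.40 in separate culture, and 2.50% of genes in co-culture and 3.18% in separate culture had a ratio as low. The second Smad3 probe set had -0.30 in co-culture and -0.27 in separate culture, but the third had -0.07 in co-culture and 0.07 in separate culture.

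Tgfb1 was also lower in KO in both conditions, with log2 ratios of -0.23 in co-culture and -0.40 in separate culture. Its co-culture ratio was not smaller in KO: the log2 ratio was 1.47 in KO and 1.29 in WT, a difference of 0.17. For Smad7 the co-culture log2 ratio was 0.25 in KO and 0.62 in WT, a difference of -0.38 that the second probe set, at 0.05 in KO and 0.09 in WT, did not show. With 1 array per group, none of these differences between genotypes was tested.

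Genes with profiles like that of Tgfb1 were sought by the smallest Euclidean distance between log2 signals centred on their mean over the 4 arrays, among 9072 genes. The 5 nearest were Pde4b, a phosphodiesterase of cyclic AMP, at a distance of 0.07, Cpt1a, which admits fatty acids to mitochondria, at 0.08, Nfkb2, a subunit of NF-kappaB, at 0.21, Slc24a3, a sodium/calcium exchanger, at 0.29, and Pdpn, the membrane glycoprotein podoplanin, at 0.31. Pde4b was 2.70-fold higher in KO co-culture and 2.60-fold higher in WT co-culture. For the brighter Skil probe set the 5 nearest were Prkd2, Smco4, Ttc4, Slf2 and Eif6, all between 1.20-fold and 1.22-fold in KO and between 1.08-fold and 1.10-fold in WT. Such likeness over 4 arrays is a description.

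The wider pathway was read through 6 gene lists, some of which include members, and most of these genes stayed close to level. For storage and activation of the ligand, 12 of 21 matched genes were measured and 0 passed 2-fold in either genotype, with median log2 ratios of 0.02 in KO and -0.11 in WT. The 4 brightest, Plau, Ltbp3, Ltbp1 and Itgb1, had log2 ratios between -0.42 and 0.10. Itgb5, an integrin chain that pairs with the alpha-v chain, was higher at 529 in KO co-culture against 344 in KO separate culture, and at 518 in WT co-culture against 341 in WT separate culture. Itgav, the alpha-v chain, had log2 ratios of -0.24 in KO and -0.26 in WT. Ltbp4, another latency protein, had -0.38 in KO and -0.36 in WT. Of the 12, 7 were above 0 in KO and 4 in WT. Itgb5, Itgav, Ltbp4 and the genes named below that are neither past 2-fold nor among the 4 brightest of a list were chosen after their values were seen.

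Of the family's receptors and co-receptors, 14 of 20 were measured and 0 passed 2-fold, with medians of 0.00 in KO and -0.02 in WT. The brightest were the BMP receptors Bmpr1a and Bmpr2, the activin receptor Acvr2a and Tgfbr1, with log2 ratios between -0.21 and 0.07. Eng, the co-receptor endoglin, had log2 ratios of 0.53 in KO and 0.33 in WT, and Bmpr1b of 0.44 in KO and 0.57 in WT. Cd109, a co-receptor that inhibits TGF-beta signalling, was lower, with log2 ratios of -0.23 in KO and -0.69 in WT. In each genotype 7 of the 14 were above 0 and 7 below. Of Smads and nuclear partners, 12 of 16 were measured and 0 passed 2-fold, with medians of 0.05 in KO and 0.12 in WT. Smad1 and Smad4, with the DNA-binding partner Runx1 and the coactivator Crebbp, were the brightest, and Runx1 in WT had the largest ratio of these 4 genes, a log2 ratio of 0.28.

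Of the list of feedback and negative regulators, 20 of 22 were measured and 0 passed 2-fold. The list is not of inhibitors alone, since it also holds genes known to promote the signal, Rnf111 and Usp9x among them. The medians were 0.07 in KO and 0.04 in WT, and without the members 0.05 in KO and 0.03 in WT. The brightest were Fkbp1a, which holds the type I receptor inactive, Strap, Rnf111 and Usp9x, with log2 ratios between -0.08 and 0.15. Sik1, a kinase induced by the pathway, was higher at 1231 in KO co-culture against 847 in KO separate culture, and at 1170 in WT co-culture against 797 in WT separate culture. Nedd4l, a ubiquitin ligase that acts on Smads, was lower at 463 in KO co-culture against 561 in KO separate culture, and at 410 in WT co-culture against 583 in WT separate culture. Of the 20, 12 were above 0 in KO and 13 in WT.

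Known target genes of TGF-beta were mixed. Of 46 matched, 32 were measured, and 1 of the 32 was at least 2-fold higher in each genotype and 0 were lower, with medians of 0.09 in KO and 0.06 in WT. The 1 was Il11, a cytokine of the interleukin 6 family, at 212 in KO co-culture against 64.8 in KO separate culture, and at 207 in WT co-culture against 52.1 in WT separate culture. Because the separate arrays were under the floor, the ratio is at least 2.79-fold in KO and at least 2.72-fold in WT. The brightest targets, Vim, Hmga2, Tpm1 and Sparc, had log2 ratios between -0.24 and 0.20.

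Below 2-fold, target genes lay on both sides of 0, and contractile and matrix genes were among the higher and the lower ones. Acta2, smooth muscle actin, had log2 ratios of -0.58 in KO and -0.73 in WT, and Ccn2, connective tissue growth factor, of -0.43 in KO and -0.70 in WT. Tagln, transgelin of smooth muscle, had -0.45 in KO and -0.40 in WT, and the collagen gene Col3a1 -0.48 in KO and -0.55 in WT. The transcription factor Klf10 had -0.30 in KO and -0.21 in WT, whereas Klf11 had 0.50 in KO and 0.27 in WT. Ccn1 was higher, unlike Ccn2, with 0.44 in KO and 0.41 in WT. Zeb1 had 0.53 in KO and 0.42 in WT, and Itga5 0.52 in KO and 0.50 in WT. The matrix gene Fn1, fibronectin, had 0.11 in KO and 0.10 in WT, and the tropomyosin gene Tpm1 0.20 in KO and 0.07 in WT. Angptl4, a lipase inhibitor, had 0.56 in KO and 0.66 in WT, and Timp1, an inhibitor of matrix proteases, 0.53 in KO and 0.48 in WT. In all, 22 of the 32 were above 0 in KO and 19 of 32 in WT. Mesenchymal markers, which share genes with this list, were mostly lower, 5 of 8 measured in KO and 5 of 7 in WT, with medians of -0.19 in KO and -0.24 in WT. Their summed signal was 31009 in KO co-culture against 32083 in KO separate culture, and 32838 in WT co-culture against 35708 in WT separate culture. Their part in these ratios was not tested.

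Of BMP, activin and GDF ligands and their antagonists, 22 of 34 matched genes were under the floor in all arrays. Among the 11 measured in KO and 12 in WT, the median log2 ratio was 0.27 in KO and 0.22 in WT, and 1 was at least 2-fold higher in KO and 0 in WT. Fst encodes follistatin, which binds and blocks activins. It read 447 in KO co-culture against 213 in KO separate culture, 2.10-fold, and 466 in WT co-culture against 263 in WT separate culture, 1.77-fold. Inhba encodes the activin A subunit, a ligand that signals through Smad3. It read 1233 in KO co-culture against 723 in KO separate culture, 1.71-fold, and 1155 in WT co-culture against 615 in WT separate culture, 1.88-fold. All 4 co-culture readings of Fst and Inhba were above the separate readings of the same gene. Fstl1, Twsg1 and Grem1, the other bright genes of the list, had log2 ratios between 0.03 and 0.39. Bmp1, a protease of the matrix and of BMP antagonists, was lower, with log2 ratios of -0.18 in KO and -0.33 in WT.

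**Figure D4:**
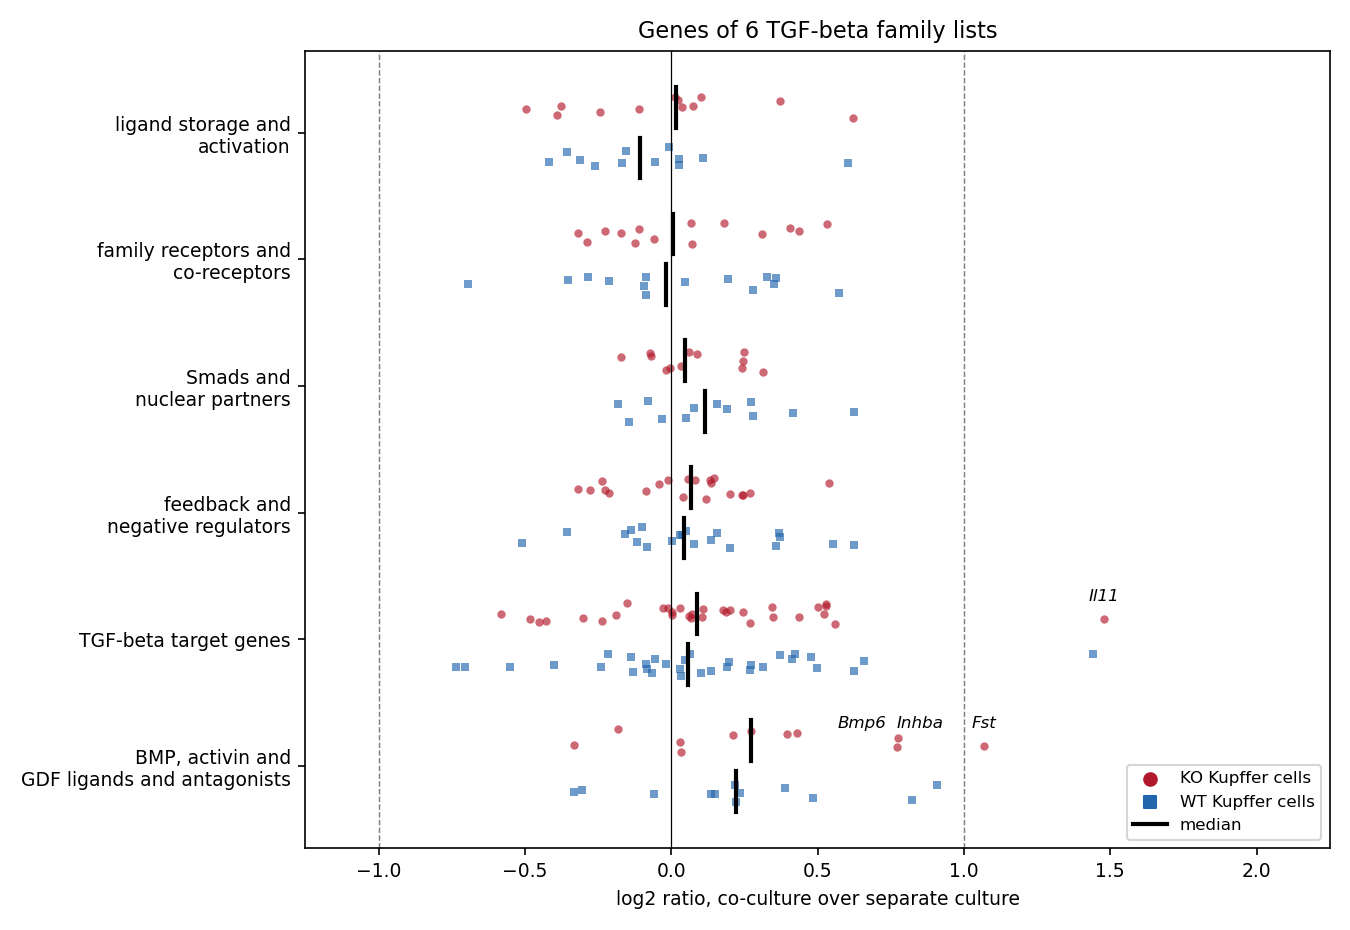
Log2 ratio of co-culture over separate culture for measured genes of 6 gene lists, red circles for KO and blue squares for WT (points spread vertically for legibility), black bars at the medians and dashed lines at 2-fold, with names for KO values of at least 0.75. Most genes lie between the dashed lines, Il11 lies past the upper line in both genotypes (its ratios are lower bounds) and Fst in KO.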

How the data were processed

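The deposited values are linear signal intensities of probe sets, made with Affymetrix Expression Console 1.4 and MAS5, per the submitters' processing notes. Per the labels' protocols, 20 ng of total RNA was amplified and hybridised to 1-colour arrays. The scaling makes values relative within an array, and precision is limited by how few arrays there are.

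The platform annotation gave 1 symbol to 34945 of 45037 probe sets, several to 932, and did not list 9160, which are unnamed here. Symbols were checked through a RefSeq table of GRCm38.p6, which held 34741 of them and changed 0. Signals were raised to the floor of 76.1 and log2-transformed, with no further scaling. Each gene was read by its brightest probe set (mean log2 signal), and was compared where either array of the pair exceeded the floor. A ratio against an array at or under the floor is a bound. Called means at least 2-fold.

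Members and lists were chosen with earlier results of these data known. Members and Clec4n are named, from each pathway list genes past 2-fold and the 4 brightest, from each marker list up to 3, and the 5 genes nearest Tgfb1 and Skil. Adgre1, Ptprc, Itgam, Clec4f and Csf1r are named beside these as defining markers. Of the marker lists, endothelial (8 of 8), neutrophil (4 of 4), T and NK (4 of 4) and B cell (2 of 2) markers were under the floor in all arrays. Of hepatic stellate markers 2 of 4 were measured, Reln and Des, and of hepatocyte markers 3 of 4. Both stellate markers were lower in co-culture, Reln with log2 ratios of -0.18 in KO and -0.13 in WT. Des had -0.71 in KO and -0.93 in WT. Whether they bear on other ratios was not tested. The calculations were tested on simulated data. Culture and genotype were not fitted together, since 1 residual degree of freedom would remain. Python 3.11.15, pandas 2.3.3, numpy 2.4.6 and matplotlib 3.10.9 were used.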

Additional observations from a re-analysis of the deposited data

Results flagged for a closer look

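With 1 array per group, none of the differences given here was tested. They are co-culture ratios with opposite signs in the genotypes, among the measured probe sets of the members and the genes named above or by the naming rule. Over all the gene lists, 34 of 107 genes measured in both genotypes and not members had opposite signs, 31.8%. For Tgfbr1, the second probe set had log2 ratios of -0.10 in KO and 0.47 in WT and the third of -0.22 in KO and 0.23 in WT, while the brightest was below 0 in both. The second Tgfbr2 probe set had -0.30 in KO and 0.40 in WT, with the WT separate array under the floor. Macrophage markers lay both ways: Cd53 had -0.23 in KO and 0.26 in WT and Laptm5 -0.29 in KO and 0.14 in WT, but Fcer1g had 0.37 in KO and -0.33 in WT and Csf1r 0.02 in KO and -0.19 in WT.

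Bmp6, a bone morphogenetic protein, had 0.77 in KO and -0.30 in WT, at signals of 143 in KO co-culture against 83.5 in KO separate culture and 85.6 in WT co-culture against 106 in WT separate culture, close to the floor. Epcam, an epithelial marker, had -0.71 in KO, where the co-culture array was under the floor, and 0.30 in WT. The pseudoreceptor Bambi had -0.32 in KO, again with co-culture under the floor, and 0.36 in WT, and the BMP co-receptor Rgmb 0.31 in KO and -0.29 in WT. Bmp6, Rgmb, Bambi and Fcer1g were chosen after their values were seen. The other genes given lay between -0.15 and 0.16. Plau had 0.04 in KO and -0.06 in WT, Ltbp3 0.01 in KO and -0.15 in WT, and Bmpr1a 0.07 in KO and -0.09 in WT. Smad1 had -0.0036 in KO and 0.16 in WT, and Smad4 -0.02 in KO and 0.08 in WT. Fkbp1a had 0.14 in KO and -0.08 in WT, Vim 0.11 in KO and -0.09 in WT, and Hmga2 0.06 in KO and -0.07 in WT.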

How the results depend on the processing

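There were 9 alternatives, and a value counted as moved where it shifted by over 0.22 on the log2 scale, the spread between genotypes given above. Tgfb1 kept its direction in all 8 that gave a value, with log2 ratios from 0.73 to 1.50 in KO and from 0.65 to 1.29 in WT. Settings that changed only the floor or the filter left its ratios at 1.47 in KO and 1.29 in WT. Its signals lay above those floors, so these settings were no check of its direction. With the median over probe sets the count of members past 2-fold was 0 in KO and 0 in WT, because the Tgfb1 probe set under the floor enters as level. With the second brightest probe set it was also 0 and 0, since Tgfb1 drops out, and the member median was -0.03 in KO, against 0.18, and 0.43 in WT, against 0.13. With the median over probe sets the member median was 0 in KO. Smad3, Smad7 and Skil stayed above 0 and Ltbp1 below 0 in both genotypes under all 9, with Skil in WT as low as 0.02 and Ltbp1 in WT as high as -0.0068. Tgfbr1 in WT reached 0.47 and Tgfbr2 in KO -0.30 with the second probe set. For target genes the count past 2-fold, 1 in each genotype, was 0 in KO and 0 in WT with a floor at 2 times the median, with the second probe set, above the floor in all 4 arrays and at 4 times the floor, where Il11 is filtered out or has no second probe set or only a smaller bound. For BMP, activin and GDF genes it was 0 in KO with the median over probe sets and with the second probe set, where the KO median was -0.14. A common median shifted the median of all genes in WT to -0.13, against -0.02, and gave 59 genes higher and 93 lower in WT, against 73 and 56. Without a floor 128 genes were higher and 111 lower in KO, and 155 and 103 in WT, against 70 and 60 in KO, and KO over WT in co-culture gave 49 higher and 49 lower, against 15 and 10. With a floor at 2 times the median, or at 4 times the floor, the co-culture counts were 48 higher and 31 lower in KO, and 46 and 29 in WT. They were 48 and 35 in KO and 53 and 30 in WT with the median over probe sets, and 33 and 34 in KO and 46 and 19 in WT with the second probe set. With log2(signal + 16) 119 genes were higher in WT. KO over WT in co-culture gave from 2 to 49 genes higher and from 1 to 49 lower over the alternatives, and in separate culture from 2 to 48 higher and from 4 to 42 lower, against 9 and 12. A fit over both genotypes with genotype as a block was not made. Signals near the floor limit what can be said of Tgfb2, Tgfbr3 and Il11.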
